A study of Rattus norvegicus with 18 samples.

Results

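The regions described here are stretches of the rat genome, 1000 bp each, that hold a middling number of CpG sites and lie between the unmethylated and the methylated state in testis DNA. Chromosomes 1 to 20 of the rn6 build were divided into 1000-bp tiles, and a tile was a member where 20 to 49 distinct CpGs were listed in it, where at least 3 of these CpGs were covered by 10 or more reads in all 12 libraries (the kept CpGs), and where the mean methylation level of the 6 control libraries was at least 30% and under 70%. A tile's level in a library is the percentage of methylated reads among all reads at its kept CpGs. A read that covers several kept CpGs is counted at each of them, here and in all read numbers of tiles and promoters. These conditions gave 1120 member tiles, which are 7.87% of the 14223 tiles of this CpG density, out of 93364 tiles measured in all. Of the other tiles of the same density, 8112 lay under 30% (low tiles) and 4991 at 70% or more (high tiles). The control levels chose the members, so the members' control levels are a description only. The tiles come from a chronic sleep restriction (CSR) group of 6 methylation libraries and a control group of 6, all from testes of Wistar rats aged 8 weeks. How sleep was restricted, and whether each library came from its own animal, is not stated in the labels, so the p-values below measure only the spread between these libraries, which may be technical. The assay was reduced representation bisulfite sequencing, in which genomic DNA is cut at CCGG sites by MspI, fragments of 200 to 450 bp are kept, and bisulfite converts unmethylated cytosines so that methylated ones can be counted.

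DNA methylation in mammals sits mainly on the cytosine of CpG sites, and it is set by de novo DNA methyltransferases and copied at cell division by the maintenance enzyme Dnmt1. CpG-dense regions, most of them promoters, are usually unmethylated, whereas isolated CpGs are usually methylated, and tiles of medium density fall on the border between these states. In the testis, germ cells carry their own methylation pattern: promoters of several germ cell genes are methylated in somatic cells and unmethylated in the germ line, and imprinted regions carry a mark according to the parent of origin. DNA of all testis cell types was read together here, so a tile at an intermediate level in each cell and a tile that is low in some cells and high in others cannot be told apart.

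A gene start could be placed in 36 member tiles, by the spacing of CpGs in RefSeq promoter sequences. For 6 of these genes the 250 bases before the start are printed because the kept CpGs around the start lie at intermediate levels: Dazl, which encodes a germ cell RNA-binding protein, Tenm3, a teneurin adhesion receptor of neurons, Tmem154, a transmembrane protein, Etnppl, the ethanolamine-phosphate phospho-lyase, Lta, the cytokine lymphotoxin alpha, and the uncharacterised gene LOC134482611. The sequences are those of RefSeq (assembly GRCr8), 5′ to 3′ on the strand of the gene, and capitals mark the CpGs that were kept in the methylation libraries. CpGs in lower case were not kept. The Dazl and Tmem154 sequences show only 3 kept CpGs each, since the other kept CpGs of these promoters lie after the start.
Dazl: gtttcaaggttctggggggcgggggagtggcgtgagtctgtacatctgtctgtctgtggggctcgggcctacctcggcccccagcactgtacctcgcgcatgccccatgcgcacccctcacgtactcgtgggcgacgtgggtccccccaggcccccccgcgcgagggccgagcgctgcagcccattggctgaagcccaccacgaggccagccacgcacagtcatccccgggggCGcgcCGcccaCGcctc
Tenm3: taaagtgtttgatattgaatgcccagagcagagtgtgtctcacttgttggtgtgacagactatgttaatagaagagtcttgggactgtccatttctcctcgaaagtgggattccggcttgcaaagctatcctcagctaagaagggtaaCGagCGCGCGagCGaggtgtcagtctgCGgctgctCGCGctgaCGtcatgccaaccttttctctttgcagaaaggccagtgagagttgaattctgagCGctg
Tmem154: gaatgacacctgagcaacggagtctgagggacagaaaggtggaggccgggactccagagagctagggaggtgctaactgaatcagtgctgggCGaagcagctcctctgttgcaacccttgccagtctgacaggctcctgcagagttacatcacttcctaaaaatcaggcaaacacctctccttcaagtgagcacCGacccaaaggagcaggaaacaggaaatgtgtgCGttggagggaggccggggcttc
Etnppl: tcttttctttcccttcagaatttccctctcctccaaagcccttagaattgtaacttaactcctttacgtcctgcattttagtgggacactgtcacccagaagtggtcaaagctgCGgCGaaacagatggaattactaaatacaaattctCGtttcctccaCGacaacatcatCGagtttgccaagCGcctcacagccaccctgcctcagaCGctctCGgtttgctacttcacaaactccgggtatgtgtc
Lta: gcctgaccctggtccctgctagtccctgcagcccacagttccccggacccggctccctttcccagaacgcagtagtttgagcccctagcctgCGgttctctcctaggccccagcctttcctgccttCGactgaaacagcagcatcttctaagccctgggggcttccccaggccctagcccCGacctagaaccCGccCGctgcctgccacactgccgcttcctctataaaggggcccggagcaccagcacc
LOC134482611: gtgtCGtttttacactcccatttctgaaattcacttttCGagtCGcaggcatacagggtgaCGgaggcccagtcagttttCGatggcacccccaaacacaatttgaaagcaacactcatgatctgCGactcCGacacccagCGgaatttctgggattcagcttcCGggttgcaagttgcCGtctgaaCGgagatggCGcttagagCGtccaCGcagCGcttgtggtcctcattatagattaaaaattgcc

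The 12 libraries held 46257452 to 68940379 reads at CpGs. The median member tile had 7 kept CpGs (range 3 to 35), 24 listed CpGs and 286 reads per library (range 30 to 88020). CSR libraries 2 and 3 stood apart from the rest. At 968 CpGs whose levels sat near 0, 50 or 100% in every library, as a sequence variant at the CpG would give, these 2 libraries held the same level at 98.0% of the CpGs, against 37.3 to 51.2% in the other 65 pairs of libraries. Only 8 of these 968 CpGs fell in members, in 6 tiles, and the mean absolute difference between CSR libraries 2 and 3 over the members was 10.1 points, against 10.2 to 13.5 in the other pairs. Their deviations from the group mean over the members correlated at -0.000, against -0.301 to -0.0887 in the other CSR pairs. These 2 libraries may come from 1 animal, which the labels do not settle and which was not tested; n = 6 for CSR counts libraries, and would be 5 if they did. Summed as 1 library they left 0 members called, 123 at an unadjusted p under 0.05 and a mean difference over members of -2.61 points. The submitters' codes name the control methylation libraries by a letter that is used for CSR libraries among the RNA samples, so which group is higher depends on the labels being right. In the RNA libraries of the same tissue (3 CSR and 3 control), all 6 measured genes of a list of 12 spermatogenic cell genes and all 6 measured genes of a list of 8 Sertoli and Leydig cell genes were above 0 FPKM in all 6 libraries. The protamine transcript Prm1 was at 968 to 3029 FPKM in CSR libraries and at 877 FPKM in control library 3, but at 0.0934 and 0.0981 FPKM in control libraries 1 and 2.

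Tiles of this CpG density were sparse between the unmethylated and the methylated state, in CSR as in control libraries. In 10-point steps from 30 to 70%, the CSR means put 417, 271, 224 and 235 tiles in each step and the control means put 378, 288, 212 and 242 there. Below 10% lay 6198 tiles by the CSR means and 6198 by the control means, and at 90% or more lay 3454 by the CSR means and 3389 by the control means. Within the band, members were most frequent at its lower end. The CSR libraries, which had no part in the choice of members, put 945 of the 1120 members in the same band, 137 below 30% and 38 at 70% or more, with CSR means between 13.8 and 83.3%. Single libraries left the band more often: all 6 CSR libraries lay within it for 365 members, and all 12 libraries for 221.

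**Figure D1:**
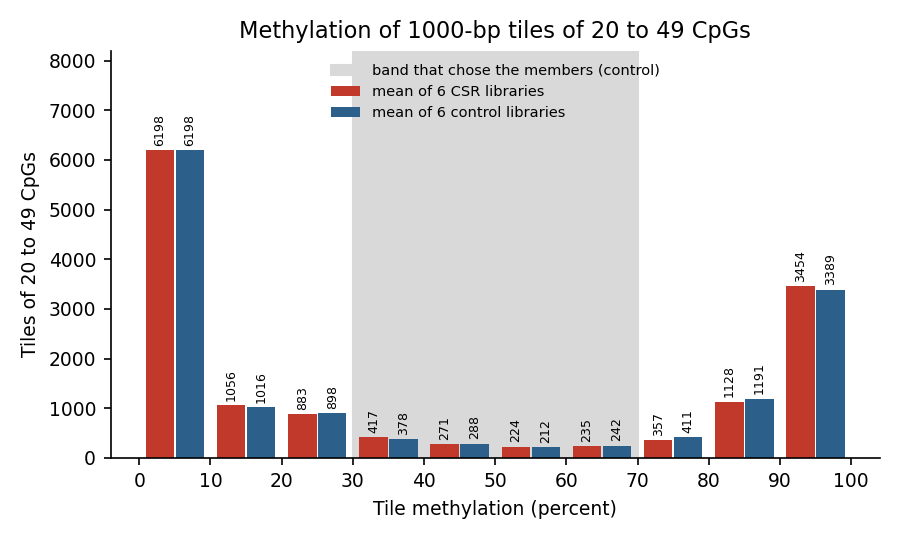
Number of 1000-bp tiles of 20 to 49 CpGs (y axis) by methylation level in percent (x axis), as the mean of 6 CSR libraries (red) and of 6 control libraries (blue), with the band that chose the members in grey. The distribution has a peak below 10% with 6198 tiles in each group and another above 90% with 3454 by CSR and 3389 by control means, and the 4 steps of the band hold 212 to 417 tiles each.

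Most single CpGs in members were themselves at intermediate levels, while the share of tiles that were intermediate throughout depended on the limits used. By the mean of the 6 CSR libraries, 7725 of the 9525 kept CpGs in members (81.1%) lay between 20 and 80%, 1034 (10.9%) under 20% and 766 (8.04%) over 80%. The same 20 to 80% class held 10.9% of the CpGs in low tiles and 8.48% of those in high tiles. A tile was named uniform where at least 80% of its kept CpGs lay between 20 and 80%, and split where at least 25% lay under 20% and at least 25% over 80%. By this scheme 734 members (65.5%) were uniform, 63 (5.63%) were split and 323 (28.8%) were neither. With limits of 30 and 70% in place of 20 and 80%, 344 members were uniform and 125 split. The median SD of CpG levels within a tile was 13.5 points in members, with a 10th and 90th percentile of 3.57 and 31.3, against 1.57 in low and 3.83 in high tiles. Differences between tiles accounted for 37.7% of the variance of CpG levels in members. No test was made of these shares, since CpGs of a tile share fragments and tiles were chosen by level.

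**Figure D2:**
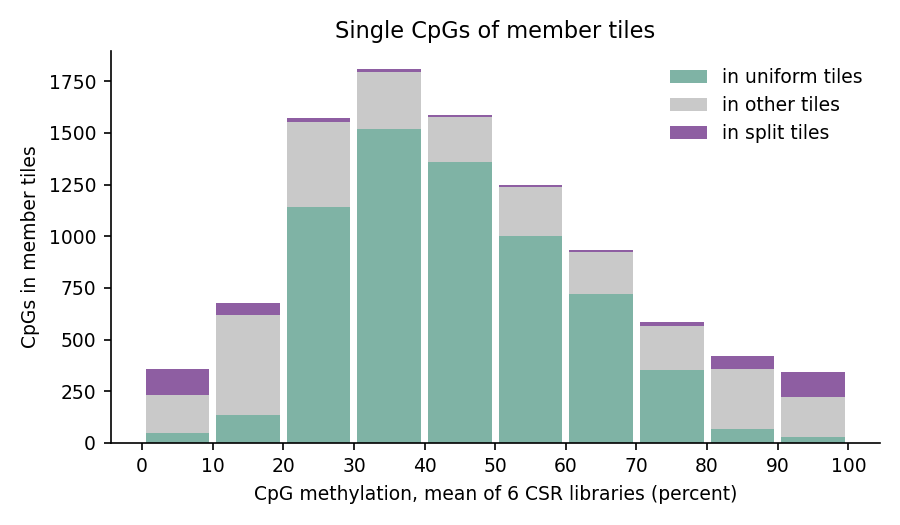
Number of kept CpGs in member tiles (y axis) by CpG methylation in percent, mean of 6 CSR libraries (x axis), stacked by the make-up of their tile: uniform (green), neither uniform nor split (grey) and split (purple). The counts peak at 30 to 40% with 1807 CpGs, and split tiles supply CpGs mainly at both ends of the scale.

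The strands of the DNA gave the same picture. At the 8352 member CpGs with at least 20 reads on each strand over the CSR libraries, the mean level was 44.2% on the forward and 44.3% on the reverse strand, and the median absolute difference between strands was 7.38 points. Both strands lay between 20 and 80% at 71.3% of these CpGs, and at 5 CpGs a strand lay under 20% and the opposite strand over 80%. Across these CpGs, which share libraries and fragments, the correlation between strands was 0.84.

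The members with the widest and the narrowest spread of CpG levels show the extremes of this make-up. The widest, at chr16:61168001-61169000, joined 5 CpGs at 85.4 to 97.1% in CSR libraries, all up to position 61168212, with 6 CpGs at 0.794 to 3.70% from position 61168933 on. Its tile level of 44.5 ± 10.1% for CSR and 46.2 ± 8.16% for control (SD, n = 6 each) therefore describes neither end. The tile at chr8:116399001-116400000 was built alike, with 9 CpGs at 67.1 to 100.0% followed by 7 at 0 to 8.05% in CSR libraries; with a coverage minimum of 20 reads its tile level moved to 83.4% in CSR, against 62.8% at the minimum of 10. The third, at chr1:626001-627000, alternated instead: between positions 626393 and 626566, 6 CpGs at 67.2 to 96.6% were interleaved with 10 CpGs at 0 to 0.633% in CSR libraries. Of the 3 it had the steadiest level, with 30.8, 31.5 and 32.3% as the lowest, median and highest CSR library and 29.7, 31.9 and 32.8% as those of control; it has no level where the most deeply covered CpGs of each library are left out. At the narrow end, the 10 kept CpGs at chr14:104209001-104210000 lay between 42.1 and 44.7% in the mean of the CSR libraries, although the libraries ran from 26.9 over a median of 39.9 to 75% in CSR and from 32.9 over 56.9 to 65.5% in control. The 10 kept CpGs at chr8:97546001-97547000 lay between 53.0 and 57.2%, with libraries from 33.8 over 49.3 to 81.2% in CSR and from 40 over 68.1 to 80.2% in control. The 10 kept CpGs at chr5:173290001-173291000 lay between 15.1 and 18.8% in CSR, with libraries from 5.90 over 16.9 to 33.7% in CSR and from 14.7 over 28.0 to 47.7% in control. In these 3 tiles the libraries differed far more than the mean levels of the CpGs, and the groups overlapped. These are unlike measures, since CpGs can share fragments and their means average 6 libraries.

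The members with the most kept CpGs were uniform or close to it, and their libraries differed little. The tile with the most, 35 kept CpGs at chr9:7467001-7468000, had 63.8, 70.2 and 71.6% as its lowest, median and highest CSR library and 60.3, 65.7 and 73.3% as those of control. The tile at chr1:148643001-148644000 held 32 kept CpGs at 11.6 to 79.2%, with CSR libraries at 30.5, 34.7 and 40.2% and control libraries at 30.1, 36.5 and 42.0%. The tile at chr7:11314001-11315000 held 28 kept CpGs at 26.1 to 83.0%, with CSR libraries at 48.4, 55.2 and 62.6% and control libraries at 48.6, 55.1 and 60.4%, and 1 of its CpGs was among those with variant-like levels. The groups overlapped in all 3.

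Few member tiles adjoined another member, and most had no measured neighbour. Of the 1120 members, 1072 had no member next to them and the other 48 formed 24 runs of 2. A measured neighbour was present for 420 members. Neighbours could have any CpG density, and the median neighbour density was 10.5 CpGs for members. Of the 463 neighbours, 32.6% lay under 30%, 29.2% in the band and 38.2% at 70% or more, by the CSR means. Neighbours of low tiles lay under 30% in 83.5% of cases and in the band in 8.56%, and those of high tiles lay at 70% or more in 90.9% and in the band in 5.62%. Of the 43 members with a measured neighbour on each side, 18 (41.9%) had 1 neighbour under 30% and the other at 70% or more. Both neighbours lay at 70% or more for 7 members and under 30% for 2. The arrangement of 1 neighbour under 30% and the other at 70% or more held for 78 of 460 low tiles (16.96%) and 12 of 207 high tiles (5.80%). A tile of 50 or more CpGs adjoined 5.18% of members, 16.1% of low and 0.681% of high tiles. A measured tile under 10% lay within 5 kb of 14.5% of members, 41.1% of low and 6.43% of high tiles.

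The members' place relative to gene starts lay between those of low and high tiles too. A placed gene start lay within 1 kb of 5.98% of members, 33.2% of low and 0.862% of high tiles, and within 5 kb of 12.1%, 41.6% and 5.19%. These shares count only the starts of the 7935 genes whose promoters could be placed by CpG spacing, so they are minimum values. Placing needed at least 8 listed CpGs, so starts in CpG-poor sequence are missed, which may affect members, low and high tiles unequally. Members took between 5.82% (chromosome 3) and 10.9% (chromosome 20) of the tiles of their density on each chromosome. The 2 megabases with the most members were adjacent on chromosome 7, with 16 members among 55 such tiles at 11000001 to 12000000 and 11 among 73 at 12000001 to 13000000. As a share of tiles of this density other megabases stood higher, such as 148000001 to 149000000 of chromosome 1 with 7 members among 11 tiles, and 6000001 to 7000000 of chromosome 17 with 7 among 21. Starts of 69 genes were placed in the chromosome 7 stretch, among them Eef2 (translation elongation factor 2), Stk11 (the kinase LKB1) and Matk (a tyrosine kinase), the last of which lies 15.8 kb from the 28-CpG tile described above.

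Placed promoters at intermediate levels were few, and among the listed genes of the germ line Dazl was the clearest. Only promoters with at least 8 listed CpGs could be placed, so CpG-poor promoters are not among them. Of the 2217 placed promoters with at least 3 kept CpGs, 2133 lay under 30% in control libraries, 64 at 70% or more and 20 (0.902%) in the band. From a list of 73 imprinted, germ cell and methylation-controlled genes, chosen with earlier results of these data known, 21 promoters were placed and 6 were measured. The promoters of the imprinted genes Igf2 and Ndn lay at 2.47 and 4.12% in CSR and at 4.199 and 2.74% in control. Inpp5f lay at 1.01% in CSR and 0.736% in control, and Prdm1, a transcription factor of germ cell specification, at 3.34% in CSR and 0.473% in control. Tdrd1, a Tudor-domain protein of the piRNA pathway, lay at 26.6% in CSR and 32.2% in control, but its start is in no member tile. Dazl was the only listed gene with its start in a member.

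The start of Dazl lay in the tile chr9:12633001-12634000, whose 4 kept CpGs and 7 more just past its edge make 11 kept CpGs from 17 bases before to 48 bases after the start. These CpGs were nearly level with each other, at 33.8 to 37.3% in the mean of the CSR libraries. The libraries differed far more: CSR libraries 1 to 6 were at 10.9, 58.0, 42.9, 29.1, 25.8 and 46.1%, and control libraries 1 to 6 at 16.0, 53.2, 30.1, 38.9, 10.9 and 41.6%. The promoter averaged 35.5 ± 16.8% over the 6 CSR libraries and 31.8 ± 16.1% over the 6 control libraries (SD). Reads summed over the 11 CpGs numbered 166 to 529 per library, but a single CpG had 12 to 78. CpGs this close can share fragments, and CSR library 3 stood at 42.9% at each of the 11. The CpG means also average 6 libraries, so the spread between CpGs and that between libraries are unlike measures. The groups overlapped over almost their whole range. In the quasi-binomial fit over all tiles the Dazl tile had an adjusted p of 0.965, with a difference of 3.01 points (CSR minus control).

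The other promoters printed above behaved alike within and between libraries, except that of Lta. At Tenm3 (chr16:46423001-46424000), 11 kept CpGs from 102 bases before to 14 after the start lay at 25.4 to 33.5% in CSR, while the libraries ran from 8.31 over a median of 21.9 to 57.1% in CSR and from 7.89 over 34.4 to 67.5% in control. At Tmem154 (chr2:183674001-183675000), the 9 kept promoter CpGs lay at 33.5 to 42.2%, with libraries from 19.8 over 39.7 to 65.0% in CSR and from 13.7 over 39.8 to 58.1% in control. At Etnppl (chr2:235742001-235743000), 8 kept promoter CpGs lay at 45.2 to 55.7%, with libraries from 28.0 over 47.6 to 78.9% in CSR and from 34.1 over 60.6 to 66.1% in control. The groups overlapped at these 3 promoters, and the spread between libraries was wider than that between the CSR means of the CpGs. These spreads are unlike measures, since CpGs can share fragments and their means average 6 libraries. LOC134482611 (chr17:81362001-81363000) was steadier, at 37.7 ± 8.65% in CSR and 37.1 ± 5.85% in control over 17 kept promoter CpGs and 543 to 1222 reads per library. LOC120097950 on the same chromosome stood at 38.4 ± 7.86% in CSR and 42.3 ± 11.5% in control over 8 CpGs.

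The Lta promoter (chr20:4852001-4853000) differed most between groups among the measured promoters in members, and its 5 kept CpGs did not lie at a common level. In CSR they stood at 68.8, 22.0, 39.9, 83.5 and 84.2% at 158, 124, 70, 58 and 54 bases before the start, against 41.9, 23.5, 14.7, 73.1 and 67.1% in control. The tile, which holds these CpGs alone, had CSR libraries at 61.4, 60, 70, 54.5, 48.8 and 62.1% and control libraries at 39.6, 43.9, 40.6, 53.2, 46.2 and 40.4%. Its mean was 59.5 ± 7.20% for CSR and 44.0 ± 5.14% for control (SD, n = 6 each), and CSR library 5 lay within the range of control. Its adjusted p over all tiles was 0.759, so it was not called, and its 57 to 276 reads per library are among the lower depths named here. In other members the intermediate CpGs lay mainly outside the promoter. At P2rx7, an ATP-gated ion channel (chr12:39396001-39397000), the 5 CpGs within the promoter lay at 2.92 to 7.74% in CSR and at 2.96 to 14.2% in control. The CpGs at positions -396 to -252 from the start lay at 22.5 to 46.0% in CSR and at 24.0 to 54.0% in control. The 4 CpGs at positions -528 to -425 lay at 59.4 to 78.0% in CSR and at 71.2 to 73.0% in control. The promoter mean of P2rx7 was 5.42% in CSR and 10.96% in control, but 2.50% in CSR without CSR library 3 (20% there) and 5.46% in control without control library 6 (38.4% there). At Mta2 (a subunit of the NuRD complex), Cep295 (a centriole protein), Marchf8 (a membrane ubiquitin ligase), Kcns1 (a potassium channel subunit), Scamp5 (a secretory carrier protein), Aqp5 (a water channel) and LOC120101802, at most 1 kept CpG lay in the promoter and the tile's level came mainly from CpGs outside it. Of the 37 genes with a start in a member, 14 had at least 3 kept CpGs in the promoter itself.

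**Figure D3:**
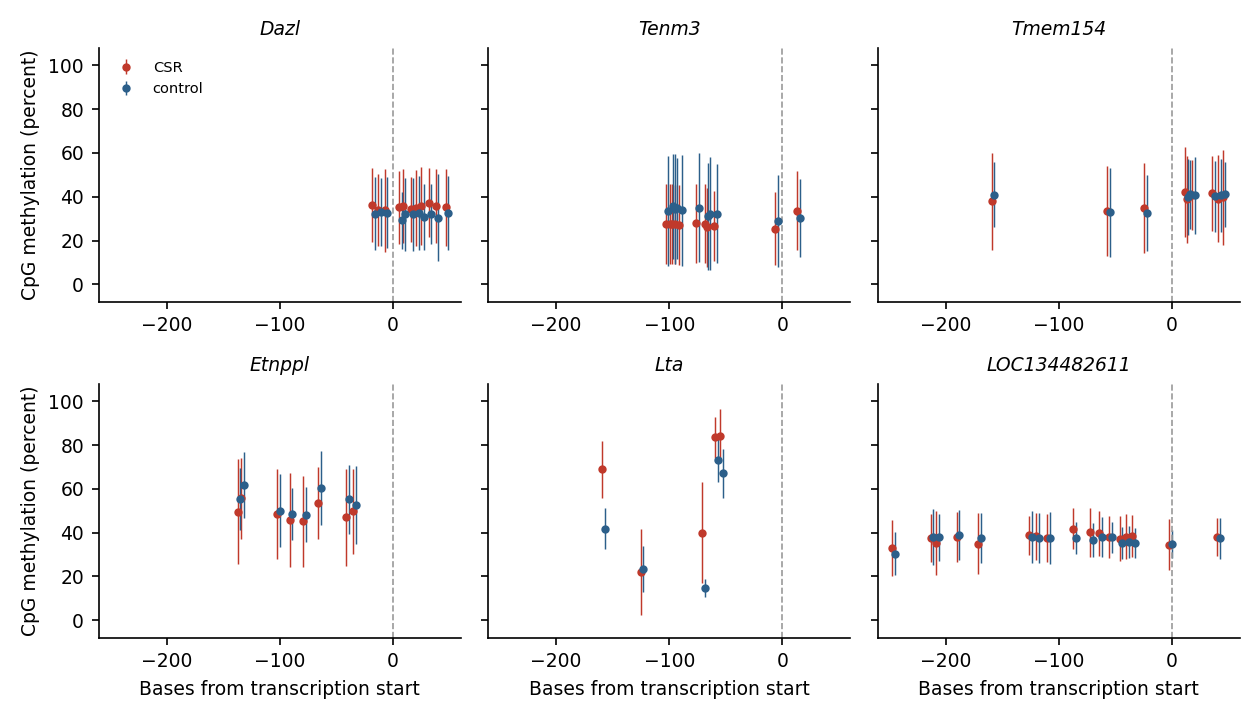
Methylation of single kept CpGs in percent (y axis) by distance from the transcription start in bases (x axis, dashed line at the start) at 6 promoters in member tiles; points are means and bars SDs of 6 CSR (red) and 6 control (blue) libraries. At Dazl, Tenm3, Tmem154, Etnppl and LOC134482611 neighbouring CpGs, which can share fragments, lie at nearly the same level with wide bars. The 5 CpGs of Lta run from 22.0 to 84.2% in CSR.

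RNA was measured for 6 of the 37 genes, in other libraries that the labels do not tie to the same animals, and is given as levels only. Dazl stood at 0.879, 2.22 and 1.18 FPKM in the 3 CSR libraries and at 0.699, 0.650 and 0 FPKM in the 3 control libraries; in whole tissue, fewer cells of a type and less RNA per cell cannot be told apart. Mta2 stood at 11.6, 11.1 and 9.57 FPKM in CSR and at 11.8, 11.4 and 11.3 FPKM in control. P2rx7 was listed at 0 in CSR libraries 1, 2 and 3 and in control libraries 1 and 3, and stood at 0.921 FPKM in control library 2.

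Members varied more between libraries than other tiles of their density. The median SD over the 6 CSR libraries was 8.84 points in members, 2.38 in low and 2.85 in high tiles, and that over the 6 control libraries was 9.02, 2.11 and 2.82 points. A percentage is expected to vary most near its middle by counting alone. If each fragment's CpGs are taken as read together, so that the average reads per CpG set the precision, counting would give a median SD of 8.24 points in members in CSR and 7.73 in control. If each CpG of each read is taken as separate, counting would give 3.01 points in CSR and 2.85 in control. The SD was lower in deeper members. In 4 classes of 280 members each, from the shallowest to the deepest, the median SD over CSR libraries was 10.6, 9.49, 8.64 and 6.94 points. The median ratio to the counting SD by reads per CpG was 1.06, 1.09, 1.13 and 1.11. Reads carried no molecular identifiers, so these counting values cover counting error only.

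A small number of members varied much beyond this, with 49 at an SD over 20 points among the CSR libraries. At chr13:53090001-53091000, 0.5 kb from the placed start of LOC120096257, CSR library 3 was at 77.8% and the other 5 CSR libraries at 0 to 15.0%, with control libraries from 13.9 over a median of 32.3 to 54.0%. The 9 kept CpGs of this tile lay at 15.8 to 24.3% in the mean of the CSR libraries. At chr9:29361001-29362000, CSR libraries ran from 29.7 over 92.2 to 97.1% and control libraries from 31.3 over 57.0 to 95.4%. At chr19:49109001-49110000, CSR libraries ran from 12.5 over 56.0 to 90.3% and control libraries from 18.8 over 36.5 to 82.3%. CSR library 2 stood at 11.8% at the first of these tiles, against the 77.8% of CSR library 3, although these libraries held the same level at nearly all variant-like CpGs, and none of the 3 tiles held such a CpG.

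No member tile was called between CSR and control. A call needed 5 points or more between the group means and an adjusted p under 0.05 in the quasi-binomial fit. By this rule 0 of 1120 members were called and 0 of all 93364 tiles (background 0.0%); limma on log ratios also called 0 members, and the smallest adjusted p among members was 0.759. At an unadjusted p under 0.05 in this fit stood 124 members (11.1%), 27 higher and 97 lower in CSR, against 6.19% of all tiles (3.42% higher and 2.77% lower). The control levels that chose the members also enter these p-values, so nothing is read from this share or its direction. The median dispersion in the fit was 10.8 in members and 4.13 over all tiles. With limma on log ratios 63 members stood there, and the share of all tiles was not taken. The mean over members was below control in CSR, at 45.5 ± 1.68% in CSR libraries and 47.7 ± 2.14% in control libraries (SD, n = 6 each), a difference of -2.27 points. CSR libraries 1 to 6 were at 44.3, 47.3, 46.9, 46.6, 44.2 and 43.4%, and control libraries 1 to 6 at 45.3, 48.0, 47.4, 51.3, 45.9 and 48.5%. The groups overlapped, since CSR libraries 2, 3 and 4 lay above control libraries 1 and 5. Because control levels chose the members, this difference is given without a test and nothing is read from its direction; with the same band set on the CSR means it was -1.43 points over 1147 tiles, and with the band set on the means of all 12 libraries -1.91 points over 1126 tiles.

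**Figure D4:**
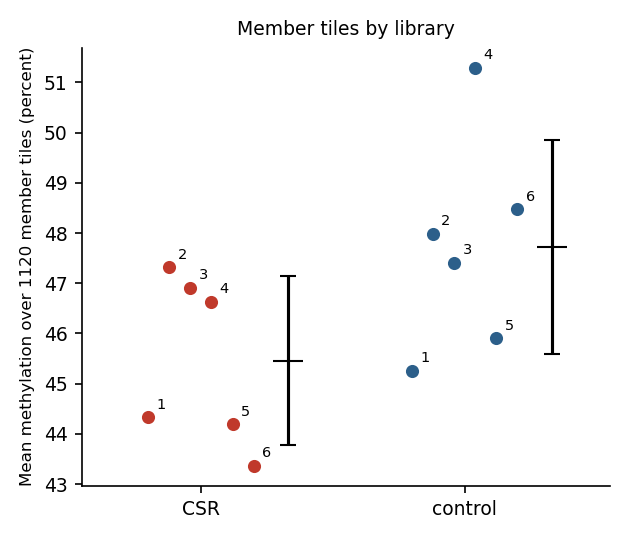
Mean methylation over the 1120 member tiles in percent (y axis, not starting at 0) in each CSR (red) and control (blue) library, with the replicate number beside each point and the mean and SD of 6 libraries as a bar. CSR libraries lie at 43.4 to 47.3% and control libraries at 45.3 to 51.3%, with overlapping ranges and control library 4 the highest.

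The tiles outside the band were set apart by the control means too, so their values are given beside those of the members and not compared with them. Low tiles averaged 6.33 ± 0.839% in CSR and 6.25 ± 0.835% in control, high tiles 91.2 ± 0.267% in CSR and 91.1 ± 0.396% in control, and all tiles together 69.9 ± 0.373% for CSR and 69.8 ± 0.485% for control (SD, n = 6 each). With all reads of the members pooled, so that deep tiles weigh more, the level was 45.3 ± 1.64% in CSR and 46.3 ± 2.67% in control. Of the members, 735 (65.6%) had the lower mean in CSR and 385 the higher, and differences of at least 5 points were found downward in 338 and upward in 124. Over all 93364 tiles 46.9% had the lower mean in CSR, with 5414 downward and 5019 upward by at least 5 points. Since control levels chose the members, nothing is read from the direction of their counts. Differences ran from -30.6 to 20.1 points with a median of -2.098, and their 5th and 95th percentiles were -12.8 and 7.65. Uniform members had a mean difference of -2.65 points, those neither uniform nor split -1.92 and split members 0.449. The make-up classes rest on CSR levels and the members on control levels, so nothing is read from these differences.

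In 4 members (0.357%, against 0.208% of all tiles, 0.123% higher and 0.0846% lower in CSR) every CSR library lay outside the range of control, each time below it. The count rests on few libraries: it was 10 without CSR library 2 or 3, 9 without CSR library 5, control library 1 or control library 3, 15 without both control libraries 3 and 5, and 1 of 596 members at a coverage minimum of 20. At chr14:11026001-11027000, CSR libraries stood at 2.80, 28.6, 18.7, 22.5, 11.8 and 25.7% and control libraries at 38.3, 48.0, 39.8, 47.1, 34.8 and 45.1%, with means of 18.4 ± 9.61% for CSR and 42.2 ± 5.35% for control (SD, n = 6 each). All 9 of its kept CpGs were below control in CSR, with 25.9% in CSR and 38.5% in control at its first and 12.7% in CSR and 46.2% in control at its seventh. The tile at chr1:89631001-89632000, 3.5 kb from the placed start of LOC108349560, averaged 45.4 ± 3.66% in CSR and 55.2 ± 2.34% in control, with the highest CSR library at 51.7% and the lowest control library at 52.0%. The tile at chr9:112092001-112093000 averaged 46.2 ± 5.64% in CSR and 57.8 ± 5.81% in control, with the highest CSR library at 52.1% and the lowest control library at 52.2%. The tile at chr10:76686001-76687000 averaged 46.0 ± 2.61% in CSR and 51.0 ± 1.02% in control, the smallest of the 4 differences and the narrowest spread. None of the 4 was called, with adjusted p-values in the quasi-binomial fit of 0.759 to 0.804.

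Among members higher in CSR, none had groups that did not overlap. The 3 with the smallest p were the Lta tile, the tile at chr10:101372001-101373000 and the tile at chr15:33052001-33053000. The chromosome 10 tile averaged 82.0 ± 5.07% in CSR and 66.1 ± 11.6% in control, with 7 of its 8 kept CpGs at 90 to 96.8% in CSR and at 70.4 to 80.8% in control and the eighth at 14.8% in CSR and 20.1% in control. The chromosome 15 tile, 17.1 kb from the placed start of the mitochondrial ribosomal protein gene Mrpl52, averaged 71.8 ± 10.99% in CSR and 57.4 ± 5.46% in control. Of its 6 kept CpGs, 2 were higher in CSR, with 60.5 and 62.8% in CSR and 25.7 and 24.6% in control, and the other 4 were slightly lower, with 78.2 to 82.1% in CSR and 79.6 to 85.6% in control. Among members lower in CSR, the smallest p also fell on the tile at chr10:108351001-108352000, 44.5 kb from the placed start of Gaa (lysosomal alpha-glucosidase), with 43.5 ± 3.94% in CSR and 53.1 ± 3.35% in control. Its CSR and control ranges overlapped by the narrow margin of 1 CSR library at 49.3% and 1 control library at 49.2%.

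**Figure D5:**
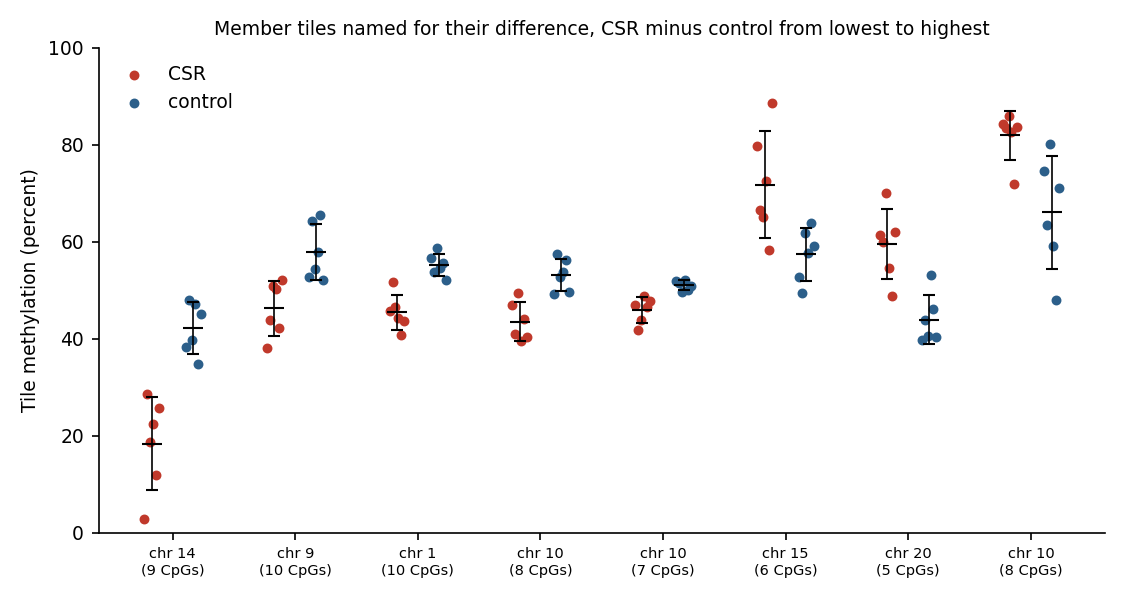
Methylation in percent (y axis) of 8 member tiles named for their difference between groups, ordered from the lowest to the highest CSR minus control difference (x axis, chromosome and number of kept CpGs), with points for the 6 CSR (red) and 6 control (blue) libraries and bars for the mean and SD. The groups do not overlap in the first 3 tiles and in the fifth, and none of the 8 was called.

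The runs of 2 adjacent members show whether neighbouring tiles shared a level. At chr1:33592001-33593000 and the next tile, CSR means were 70.5 and 70.8% and control means 65.1 and 67.6%, although the SD over CSR libraries was 21.04 points in the first and 8.23 in the second. At chr1:148416001-148417000 and the next tile, CSR means were 37.5 and 42.9% and control means 39.6 and 41.2%. At chr1:81868001-81869000 and the next tile the level stepped, with 59.9 and 23.8% in CSR and 63.6 and 34.6% in control.

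Members at the edges of the band differed little from tiles just beyond it. The 3 members nearest above the lower edge had control means of 30.008 to 30.067% and CSR means of 36.4, 26.8 and 18.8%, and the 3 tiles nearest below it had control means of 29.987 to 29.998% and CSR means of 25.4, 23.1 and 31.5%. At the upper edge, the 3 members nearest below had control means of 69.827 to 69.945% and CSR means of 57.0, 67.6 and 69.3%, and the 3 tiles nearest above had control means of 70.024 to 70.091% and CSR means of 64.1, 66.3 and 73.6%.

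Single CpGs within the members gave no call either. With 10 points as the smallest difference for a call, 0 of the 9525 kept CpGs in members and 1 of all 643813 CpGs (background 0.000155%) were called by the quasi-binomial fit. At an unadjusted p under 0.05 stood 721 of them (7.57%, 184 higher and 537 lower in CSR), against 9.14% of all CpGs. The groups did not overlap at 20 CpGs in members (0.210%, 5 higher and 15 lower in CSR), against 0.159% of all CpGs. The control levels that chose the tiles also enter these values, so nothing is read from the shares or their direction. The shares of all CpGs were not split by direction. The smallest adjusted p in members, 0.172, was at chr2:551216-551217, with 82.3 ± 8.79% for CSR and 55.2 ± 7.001% for control (SD, n = 6 each). Next was chr9:98695775-98695776, with 55.6 ± 7.15% in CSR and 83.3 ± 8.00% in control and an adjusted p of 0.188. At both CpGs the groups did not overlap, the first higher and the second lower in CSR. Coverage was 16 to 73 reads at the first and 25 to 84 at the second.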

How the data were processed

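DNA methylation was measured in 6 CSR and 6 control RRBS libraries and RNA in 3 CSR and 3 control libraries, grouped and numbered by the labels. Per the file headers, the authors' methylation tables give the read count (coverage) at each CpG cytosine and the percent of reads read as C or T; the lowest coverage is 5. The authors deposited RNA as FPKM values, whose depth is unknown. Per the submitters' processing notes, Trim Galore, Bismark, SAMtools, Trimmomatic, HISAT2, StringTie and rn6 were used; versions and settings are not stated there. Cytosines covered under 5 reads are thus not in the tables, which keeps CpGs that any library missed out of the tiles.

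Methylated reads were coverage times percent, summed over both strands; 3 repeated rows were left out, and a CpG was kept where each of the 12 libraries had 10 or more reads. Tiles and CpGs were tested over the whole table by a quasi-binomial logistic model in Python 3.11.15, with the dispersion moderated by squeezeVar of limma 3.58.1 (R 4.3.3) and Benjamini-Hochberg adjustment; the tests were checked on simulated data. The members and lists were chosen with earlier results of these data known. Named tiles were the 3 smallest p in each direction, up to 5 members in each direction whose groups do not overlap, the 3 with the most kept CpGs, the 3 widest and narrowest in CpG level among those of at least 10 kept CpGs, the 3 with the largest SD over CSR libraries among those of at least 100 reads per library, 3 runs, and 3 tiles on each side of both edges. Named genes were those of the list and the 10 with the most listed CpGs; Lta is in a named tile, and the other promoters and genes were chosen after their values were seen, as was the cell marker list.

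No rn6 genome or annotation was used. RefSeq promoters (GRCr8, 300 bp) were placed on the rn6 CpG positions where at least 8 listed CpGs, spanning at least 100 bp, all fell on CpGs of the sequence at only 1 place. Of 33469 promoters, 15890 had enough CpGs and 8887 had 1 place with a chromosome to compare, of which 8802 (99.0%) lay on the chromosome RefSeq names; only these were used. A CpG counted as variant-like where the level of each of the 12 libraries fell at most 15 points from 0, 50 or 100% and at most 9 libraries shared one of these levels. Of 7016 RNA accessions, 6907 matched a RefSeq symbol.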

Additional observations from a re-analysis of the deposited data

Results flagged for a closer look

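A library standing far from the others of its group was found in 6 of the 68 groups of 6 values examined. The groups include tiles named for their difference or their spread, so this count is not set against chance. Control library 2 had the fewest reads over the members, 473069, against 570616 to 601790 in the other control libraries. At chr1:81868001-81869000 CSR library 2 was at 81.5% and the other CSR libraries at 50 to 58.7%. CSR library 5 was lowest at chr8:116399001-116400000, with 54.9% against 62.7 to 66.1%, and at chr10:101372001-101373000, with 71.9% against 82.6 to 86.0%. At chr13:53090001-53091000 CSR library 3 was at 77.8% and the other CSR libraries at 0 to 15.0%. At chr19:49109001-49110000 control library 6 was at 82.3% and the other control libraries at 18.8 to 39.9%.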

How the results depend on the processing

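In every alternative run on tiles, 0 member tiles were called and the mean difference over members stayed below 0. Single CpGs were rerun at fewer settings, and 0 CpGs in members were called at each. These were no moderation, limma on log ratios with and without the replicate number as a block, and CSR libraries 2 and 3 summed. With a coverage minimum of 20 reads only 596 members remained, of which 68 had an unadjusted p under 0.05, 372 were lower in CSR, 1 had groups that did not overlap, 430 were uniform and 21 split. Unadjusted p under 0.05 was reached by 63 members with limma on log ratios and by 77 without moderation. The shares of all tiles at these settings were not taken. With class limits of 30 and 70%, 344 members were uniform and 125 split, and a band of 40 to under 60% held 500 members, with a mean difference of -2.32 points. With tiles shifted by 500 bp, 1138 tiles were members and the mean difference was -2.50 points. Of the 537 values of single named tiles recomputed, 535 counted as unchanged. For a level this meant a move of less than the SD over CSR libraries. For a difference it meant only the same sign and no call, whatever its size. The other 2 were levels. The level of chr8:116399001-116400000 moved from 62.8 to 83.4% in CSR at a coverage minimum of 20. That of chr1:148643001-148644000 moved from 35.5 to 41.1% without the most deeply covered CpGs. That limit leaves 14 members without a value, chr1:626001-627000 among them.

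Leaving out each library in turn, the members whose groups did not overlap numbered 4 to 10, those with an unadjusted p under 0.05 98 to 133, and those lower in CSR 684 to 751. The mean difference ran from -2.76 to -1.55 points, with -1.55 without control library 4. Calls among all tiles numbered 0 to 3, with 3 without control library 2 and 1 without CSR library 4. CSR libraries 2 and 3 summed as 1 library gave 10 members whose groups did not overlap, and leaving out both control libraries 3 and 5 gave 15.

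The groups share the replicate numbers 1 to 6, and the labels do not say whether the numbers pair the libraries. Deviations from the group means over the members correlated at -0.053 to 0.0645 between libraries of the same number. By the same measure CSR libraries 2 and 3, alike at variant-like CpGs, stood at -0.000, so these values do not settle the pairing. With the replicate number as a block, 3 of all tiles and no member were called. At a median of 286 reads per tile and library, summed over kept CpGs, the median SD over CSR libraries was 8.84 points in members. Counting by reads per CpG would give 8.24 points, and counting each CpG of each read as separate 3.01. Which of these holds was not tested. In single members, differences of a few points lay within the median SD.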
